A study of Drosophila melanogaster with 9 samples.

Results

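Loss of the Pri peptides was described here by setting 3 RNA-seq samples of pri mutant Drosophila melanogaster embryos against 3 samples of control embryos, which are 6 of the 9 samples of the series. The samples were chosen by their labels alone, and all 15228 genes of the deposited count table were tested, with the genes outside cuticle and trichome formation as the main subject. The pri mutants carried the allele pri S18.1 and were picked by hand at stage 16, late in embryogenesis, by the lack of the GFP of a balancer chromosome. The controls carry the genotype label WT, and their titles begin with w. The 3 ken mutant samples, of the genotype ken1 over the deficiency Df(2R)BSC660 and sorted in the same way, shared the estimate of the spread. Their values are given side by side with the others for some genes; both mutants have the same controls, and differences between the mutants were not tested. Each sample was RNA of pooled whole embryos, so that fewer cells of a type and less RNA per cell cannot be told apart in any result below. Mutants and controls come from different stocks, and the pri allele and the rest of the stock background cannot be told apart either.

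The gene pri, also called tarsal-less, mille-pattes or polished rice, makes an RNA whose short open reading frames are translated into very small peptides. In epidermal cells these peptides bind the ubiquitin ligase Ubr3 and lead the proteasome to trim the transcription factor Shavenbaby, which then switches trichome genes on instead of off. Expression of pri itself is driven by the steroid hormone ecdysone, so that the peptides tie the timing of epidermal differentiation to the hormone. Embryos without pri have no trichomes and have a misshapen tracheal system. The BTB transcription factor Ken is the factor the study placed downstream of Pri in the repression of cuticle genes.

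Between 21048610 and 27958222 reads were counted per sample. Levels are normalized counts, that is counts divided by the size factor of the sample; they are not per length and are compared only within a gene. A gene was called when the adjusted p of edgeR's quasi-likelihood test was under 0.05, and each fold change is pri over control. The first principal component of the 6 samples held 52.3% of the variance and separated the genotypes, but pri 1, at -60.4, stood apart from pri 2 at -13.5 and pri 3 at -19.9, while the controls lay between 27.0 and 39.5. Chi-square per degree of freedom between samples was 93.4 for pri 1 and 2 and 77.7 for pri 1 and 3, against 7.20 for pri 2 and 3 and 21.0 to 27.0 for pairs of controls. None of the 8 epidermal markers was called by edgeR, with 1 of them under an unadjusted p of 0.05 and 1 called by DESeq2, and the epidermal regulator grh had 5055, 5176 and 5420 normalized counts in pri mutants against 5275, 4507 and 4726 in controls. Transcripts of the blastoderm were present in 2 of the control samples, as set out further on. P-values rest on the 3 samples of each genotype, which the study calls independent.

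**Figure D1:**
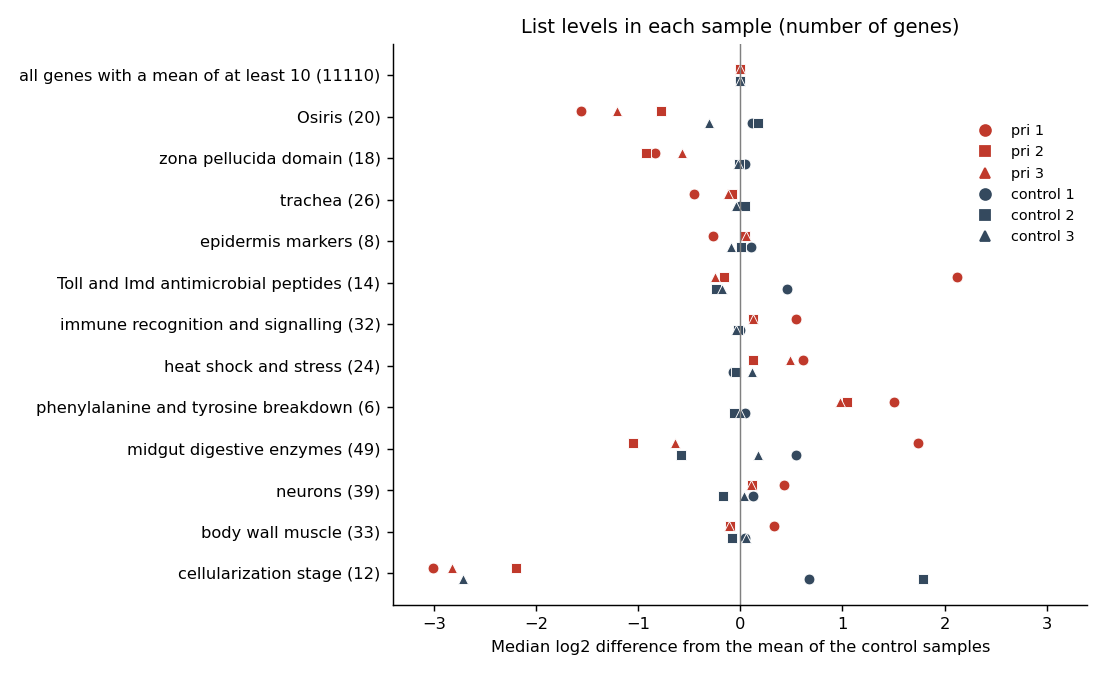
Median over the genes of a list of the log2 difference between a sample and the mean of the control samples (x axis), for 12 lists and all genes with a mean of at least 10 normalized counts; the number of genes is in parentheses. Red symbols are pri samples and dark symbols controls. Pri 1 lies far from pri 2 and pri 3 for the midgut digestive enzymes (1.74 against -1.05 and -0.64) and antimicrobial peptides (2.12 against -0.16 and -0.25), and the cellularization genes lie at 0.67 and 1.79 in controls 1 and 2 but at -2.72 in control 3.

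The genes around the mutated gene itself were low in the pri mutants. Reads of pri itself were not analysed here. On chromosome arm 3R, a stretch from position 13815279 to 13874916 of release 6 of the genome (dm6) was drawn from these same values. It began with E5 and Nsf2 and was extended while the next gene with reads was strongly lower in pri mutants. Of its 7 genes, 6 were lower, against 3.83% of all genes, and the median log2 fold change of the 7 was -4.47. These values and the contrast with the genes on each side follow in part from that rule and are a description only. The genes of the stretch share a chromosome segment and are no independent observations. E5, a homeobox gene at 3R 13867345 to 13874916 (FBgn0008646), had 8.02, 10.6 and 10.5 normalized counts in pri mutants, against 360, 360 and 330 in controls. Its log2 fold change was -5.15 with a standard error (SE) of 0.19 (adjusted p = 6.31e-06). Nsf2, which encodes an ATPase of membrane fusion and lies at 3R 13833497 to 13837991 (FBgn0266464), had 49.3, 135 and 167 normalized counts in pri mutants, against 2566, 2726 and 2543 in controls. In the ken mutants Nsf2, at 2374 to 2740, overlapped the controls, while E5, at 241 to 327, lay under the lowest control and above every pri sample. The noncoding gene lncRNA:CR43641 averaged 11.6 ± 1.86 in pri mutants and 185 ± 39.7 in controls (SD, n = 3 each), and CG31495 averaged 8.48 ± 5.73 in pri mutants and 78.5 ± 3.75 in controls.

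The other genes of this stretch had few reads. For lncRNA:CR43642, 3 reads were counted over the pri samples and 60 over the controls, a ratio of 0.0565 at equal depth with a 95% counting interval of 0.0113 to 0.173. Neither lncRNA:CR43300, with 15 reads in the controls, nor Mst87F, a gene of the male germ line with 10, had a read in a pri sample. The call of lncRNA:CR43300 held in 4 of 14 alternatives and was lost in the fit of the 6 pri and control samples alone, with a replicate block, and without any pri or ken sample, control 1 or control 3 (adjusted p = 0.0538 to 0.134). None of the 10 genes before the stretch was called by edgeR, and their median log2 fold change was -0.06. Of the 10 genes after it, rdx was called, with a mean of 9279 ± 440 in pri mutants and 11644 ± 706 in controls. This gene, chosen after its values were seen, encodes an adaptor of the ubiquitin ligase Cullin-3 in Hedgehog signalling. The call of rdx held in 8 of 16 alternatives, not with library totals, without any single pri or control sample or without ken 3 (adjusted p = 0.0591 to 0.127). For every fold change given below, the allele's effect through Pri and through the loss of these neighbours cannot be told apart.

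**Figure D2:**
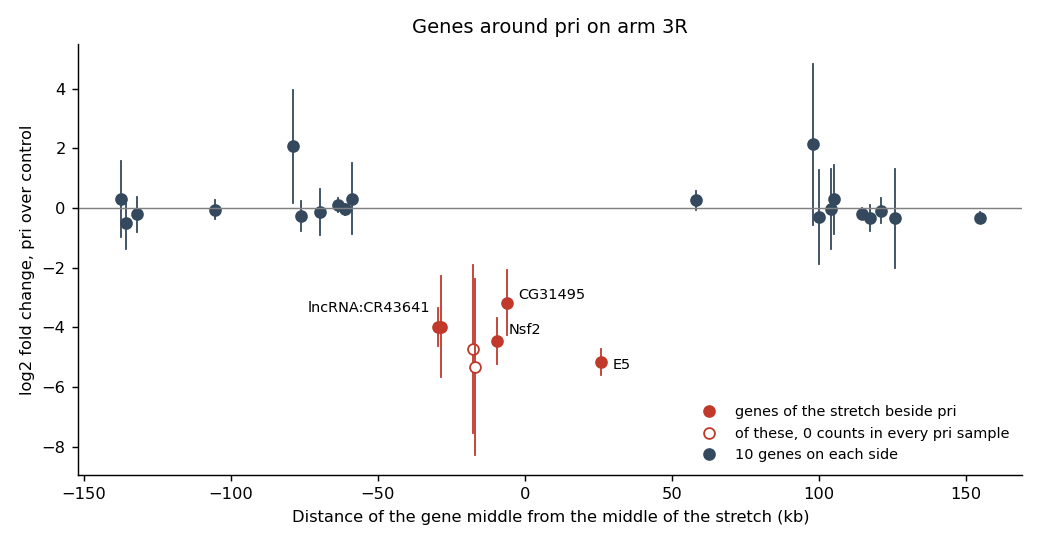
Log2 fold change of pri over control with its 95% interval (y axis) for the 7 genes of the stretch beside pri and the 10 genes on each side of it, by the distance of the gene's middle from the middle of the stretch in kb (x axis). Open symbols are the 2 genes without a read in any pri sample, whose fitted value is no bound. All 7 genes of the stretch, whose borders were drawn by low values, lie at -3.18 or lower. The called gene among the flanking genes, rdx, lies at -0.33.

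Over the whole table, pri mutants had 561 genes that were higher (3.68% of those tested) and 583 that were lower (3.83%). DESeq2 called 872 higher (5.73%) and 837 lower (5.50%). An unadjusted p of edgeR under 0.05 was reached by 3362 of the 15228 genes. Of the 1144 genes called by edgeR, 1143 had no overlap between the 3 pri and the 3 control samples, which held for 31.0% of all genes tested. Past a log2 fold change of 1 in either direction, 243 genes were higher and 360 lower, and past 4, 26 were higher and 35 lower. The lists of cuticle, chitin and trichome genes, which hold 175 genes, took a minor part of the calls, since 551 of the higher genes (98.2%) and 541 of the lower ones (92.8%) were outside them. The numbers depended on single samples. Without control 1 the higher and lower genes were 261 and 334, without control 2 they were 279 and 308, and without control 3 they were 257 and 389. Without pri 2 they were 383 and 373, without pri 3 they were 313 and 326, and without pri 1, the sample that stood apart, they were 504 and 517. Of the 1144 genes, 471 were called in each of 16 alternative fits. A called gene named below was called in all 16 unless a smaller number is given; for genes that a fit left without a value, the number of fits with one is given instead of 16.

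The cuticle and trichome genes serve for orientation. Of 13 trichome effectors, 9 were lower (69.2%, against 3.83% of all genes) and none higher. The effector gene shavenoid (sha), which works in actin extension of trichomes, averaged 387 ± 64.8 in pri mutants and 1710 ± 335 in controls. Of 132 cuticle protein genes, 8 were higher and 28 lower (27.3% called, against 7.51% of all genes). The larval cuticle protein gene Lcp3 had 5789, 3436 and 4887 normalized counts in pri mutants, against 18.3, 22.5 and 12.5 in controls, while the Tweedle gene TwdlW averaged 1959 ± 349 in pri mutants and 11473 ± 2695 in controls.

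Beyond those genes, many Osiris genes fell. The Osiris genes form an insect-specific family of membrane proteins expressed in epithelia that secrete cuticle. Of 25 Osiris genes, 11 (44.0% of the list, against 3.83% of all genes) were lower and 1 was higher, and 19 of the 20 with a mean of at least 10 normalized counts had a negative fold change. The count of lower genes was 6 without control 1, 5 without control 2 and 5 without pri 3. Osi7 (FBgn0037414, 3R 6248994 to 6251683) had 13131, 25573 and 16968 normalized counts in pri mutants, against 100862, 87099 and 56370 in controls. Its log2 fold change was -2.14 (SE 0.34, adjusted p = 0.00623). Osi15 averaged 9749 ± 2411 in pri mutants and 23343 ± 3013 in controls, and the lowly expressed Osi5 and Osi16 had log2 fold changes of -1.68 (SE 0.22) and -1.85 (SE 0.31). Osi20 averaged 6105 ± 1577 in pri mutants and 13088 ± 1670 in controls and was called in 14 of 16 alternatives, not without control 2 (adjusted p = 0.058) or pri 3 (adjusted p = 0.052). The member that rose was Osi2, with 11949, 6424 and 9796 normalized counts in pri mutants against 3380, 4224 and 3542 in controls. It was called in 15 of 16 alternatives, not without control 1 (adjusted p = 0.0543). The ken mutants had 64389 to 131676 for Osi7 and 4708 to 7820 for Osi2.

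Genes with a zona pellucida domain encode membrane-anchored proteins of the apical extracellular matrix, several of which shape trichomes. Of 18 such genes, 8 were lower (44.4%, against 3.83% of all genes) and none was higher, and their median log2 fold change was -0.78, against 0.02 for all genes with a mean of at least 10. Miniature (m) had 394, 635 and 579 normalized counts in pri mutants, against 3753, 3065 and 2190 in controls, the largest change of the list (log2 fold change -2.49, SE 0.29, adjusted p = 0.00146). Morpheyus (mey) averaged 1810 ± 72.1 in pri mutants and 6163 ± 1171 in controls, neyo (neo) 2044 ± 465 in pri mutants and 6061 ± 762 in controls, and nyobe (nyo) 1242 ± 268 in pri mutants and 3963 ± 1059 in controls. Dusky-like (dyl) and trynity (tyn), chosen after their values were seen, had log2 fold changes of -1.45 and -1.17 and were called in 13 of 16 alternatives each. Both calls were lost without control 1, control 2 or pri 3, with adjusted p-values between 0.0548 and 0.0806. These 6 genes are also among the 9 called trichome effectors, so that the lists share them.

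Further genes with very many reads fell in the same samples. CG15022 (FBgn0035547, 3L 4459193 to 4460317) had 1128, 2486 and 1902 normalized counts in pri mutants, against 14121, 21609 and 19705 in controls, a log2 fold change of -3.33 (SE 0.29, adjusted p = 0.000299). CG3108 (FBgn0029807) had 808, 2678 and 1381 in pri mutants, against 20466, 15011 and 9237 in controls. Ectodermal (ect), named for its expression in the embryonic ectoderm, had 4762, 9870 and 7132 in pri mutants, against 34576, 29494 and 20281 in controls. For each of these genes the highest pri sample was well under the lowest control. The ken mutants were at 13798 to 19183 for CG15022, 10856 to 23553 for CG3108 and 20064 to 38755 for ect, within or near the control range. CG17290 fell to 1461 ± 272 in pri mutants, against 10361 ± 2924 in controls, and CG30458 to 1255 ± 257 in pri mutants, against 7733 ± 2385 in controls. For these genes the ken mutants were low as well, at 1564 to 3664 and 686 to 1849. The fatty acid elongase gene CG31522 averaged 10074 ± 2390 in pri mutants and 18345 ± 1898 in controls and was called in 15 of 16 alternatives, not without control 2 (adjusted p = 0.054).

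**Figure D3:**
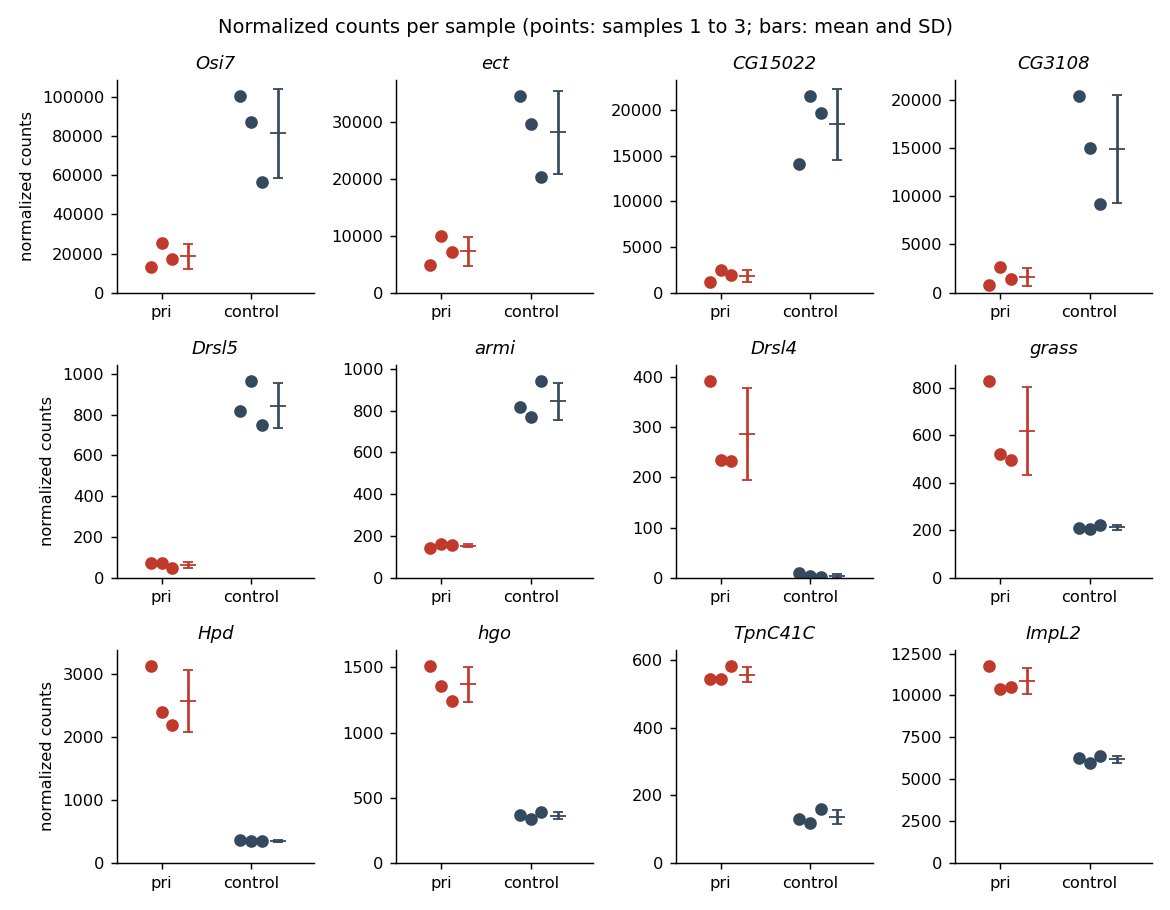
Normalized counts (y axis, from 0) of 12 genes in the 3 pri samples (red, left) and the 3 control samples (dark, right), with the mean and SD beside the points. Osi7, ect, CG15022, CG3108, Drsl5 and armi are lower and Drsl4, grass, Hpd, hgo, TpnC41C and ImpL2 higher in pri mutants, and the groups do not overlap for any of the 12 genes.

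Among tracheal genes, 5 of 26 were lower and 1 was higher (23.1% called, against 7.51% of all genes), with a median log2 fold change of -0.17, and past a log2 fold change of 1 only ect, which is also of this list, was lower. In the tube lumen a chitin cable is laid down and cleared before gas fills the tubes. Waterproof (wat, FBgn0039620), a fatty acyl-CoA reductase required for gas filling, had 1049, 1201 and 1072 normalized counts in pri mutants, against 1851, 2268 and 2366 in controls. Its log2 fold change was -0.97 (SE 0.10, adjusted p = 0.00108). Gasp, a chitin-binding protein of the lumen, averaged 16436 ± 802 in pri mutants and 29348 ± 4999 in controls. The luminal chitin deacetylase serpentine (serp) averaged 15334 ± 402 in pri mutants and 22471 ± 639 in controls. Its partner vermiform (verm), chosen after its values were seen, averaged 31485 ± 294 in pri mutants and 41015 ± 1171 in controls and was called in 14 of 16 alternatives, not without control 2 (adjusted p = 0.0624) or pri 3 (adjusted p = 0.0537). Gasp is also counted among the cuticle proteins, and serp and verm among the chitin genes. The list member that rose was the nuclear receptor gene Hr51, which is also counted with the ecdysone response and described there. Whether Hr51 is expressed in the trachea was not examined.

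A few genes with high counts rose. CG15282 (FBgn0028855) had 20972, 11588 and 11360 normalized counts in pri mutants, against 5914, 6314 and 5064 in controls. Appl, the fly homologue of the amyloid precursor protein, averaged 13272 ± 1036 in pri mutants and 9249 ± 896 in controls. Snakeskin (Ssk), a membrane protein of the smooth septate junctions that seal the gut epithelium, had 12116, 8983 and 9218 in pri mutants, against 4948, 4852 and 5602 in controls (log2 fold change 0.98, SE 0.15, adjusted p = 0.00521). The other components of that junction come from a list drawn up after the values were seen. Of these, Tsp2A, hoka and mesh were not called, with log2 fold changes of 0.34 (95% interval 0.01 to 0.68), 0.46 (0.16 to 0.76) and -0.07 (-0.32 to 0.19). Su(Tpl), which encodes an ELL-type elongation factor of RNA polymerase II, averaged 14881 ± 883 in pri mutants and 11017 ± 394 in controls and was called in 13 of 16 alternatives, not without control 1, 2 or 3 (adjusted p = 0.0609, 0.0521 and 0.0501). CG4998 averaged 5866 ± 2608 in pri mutants and 2161 ± 436 in controls and was called in 13 of 16 alternatives, not in the fit of the 6 samples only (adjusted p = 0.0503), without control 2 (adjusted p = 0.072) or without control 3 (adjusted p = 0.081). CG9757 had 9607 in pri 1 and 2334 and 3107 in the other pri samples, against 644, 589 and 622 in controls, and its log2 fold change of 3.02 was 2.14 without pri 1. Its call held in 12 of 16 alternatives, not with a robust dispersion (adjusted p = 0.0578) or without control 1, 2 or 3 (adjusted p = 0.0711 to 0.0753).

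Immune genes moved in both directions, more often upward. The fly detects microbial cell walls with PGRP and GNBP proteins, a cascade of serine proteases then cleaves the ligand Spätzle (spz), and the receptor Toll switches on secreted antimicrobial peptides. Of 37 genes of recognition and signalling, 7 were higher (18.9% of the list, against 3.68% of all genes) and 2 lower, and 26 of the 32 with a mean of at least 10 had a positive fold change. The 7 higher genes became 4 without control 1, 4 without control 2, 3 without control 3, 4 without pri 2 and 5 without pri 1. The list's level was 0.55 in pri 1 and 0.12 in both other pri samples, against -0.04 to 0.00 in controls, as a median log2 difference from the control mean. The protease gene grass had 829, 522 and 497 normalized counts in pri mutants, against 208, 205 and 224 in controls (log2 fold change 1.54, SE 0.19, adjusted p = 0.00208). Persephone (psh), another protease upstream of Toll, had 245, 237 and 249 in pri mutants, against 140, 120 and 143 in controls. PGRP-SB1, a secreted peptidoglycan-binding protein, had 58.5, 38.2 and 53.3 in pri mutants, against 5.24, 8.09 and 12.5 in controls.

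The other called genes of this list held less firmly. The ligand gene spz averaged 1381 ± 144 in pri mutants and 947 ± 101 in controls and was called in 13 of 16 alternatives, not without control 1, control 3 or pri 2 (adjusted p = 0.0672, 0.0739 and 0.0517). The genes SPE, GNBP1 and PGRP-LC, chosen after their values were seen, had log2 fold changes of 0.53, 0.68 and 0.38 and were called in 12, 11 and 8 of 16 alternatives. SPE, the protease that cleaves Spätzle, was not called without control 2, control 3, pri 2 or pri 3 (adjusted p up to 0.0955), and GNBP1 not without any control, pri 1 or pri 2 (adjusted p up to 0.115). PGRP-LC, the receptor of the Imd pathway, was not called in the fit of 6 samples or without any control, pri 1, pri 3, ken 2 or ken 3 (adjusted p up to 0.152). The 2 lower genes, also chosen after their values were seen, were the receptor gene Tl, with a log2 fold change of -0.37, and PGRP-SD, with -1.27. Tl was called in 8 of 16 alternatives and not with library totals, in the fit of 6 samples or without control 1, control 2, ken 2 or any pri sample (adjusted p up to 0.156). PGRP-SD was called in 11 and not without any control, pri 1 or pri 3 (adjusted p up to 0.112).

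The genes of the Toll and Imd antimicrobial peptides split in a sharper way. Of 30, 4 were higher and 1 lower (16.7% called, against 7.51% of all genes), and neighbouring members of the Drosomycin family on 3L went opposite ways. Drsl4 (FBgn0052282, 3L 3315620 to 3315942) had 393, 234 and 232 normalized counts in pri mutants, against 8.73, 2.70 and 1.14 in controls. Its log2 fold change was 5.99 (SE 0.69, adjusted p = 0.00137), and 7.08 without control 1. Drsl5 (FBgn0035434, 3L 3316781 to 3317144) had 71.1, 73.1 and 46.0 in pri mutants, against 816, 967 and 749 in controls (log2 fold change -3.74, SE 0.23, adjusted p = 4.03e-05). In the ken mutants Drsl4 was at 4.11 to 23.7 and Drsl5 at 726 to 1077. The attacin gene AttB had 29.8, 14.8 and 17.8 in pri mutants, against 2.62, 1.80 and 2.28 in controls. The Bomanin BomBc2, a short immune peptide under Toll control, had 44.7, 53.0 and 55.4 in pri mutants, against 13.1, 16.2 and 7.99 in controls. BomS2, chosen after its values were seen, averaged 349 ± 151 in pri mutants and 99.8 ± 35.3 in controls and was called in 8 of 16 alternatives, not with a robust dispersion or without any single pri or control sample or ken 2 (adjusted p = 0.0531 to 0.144). The level of the whole list was 2.12 in pri 1 but -0.16 and -0.25 in pri 2 and 3, against -0.24 to 0.46 in controls. Pri 1 was thus above the range of the controls and pri 2 and 3 were within it or next to it.

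**Figure D4:**
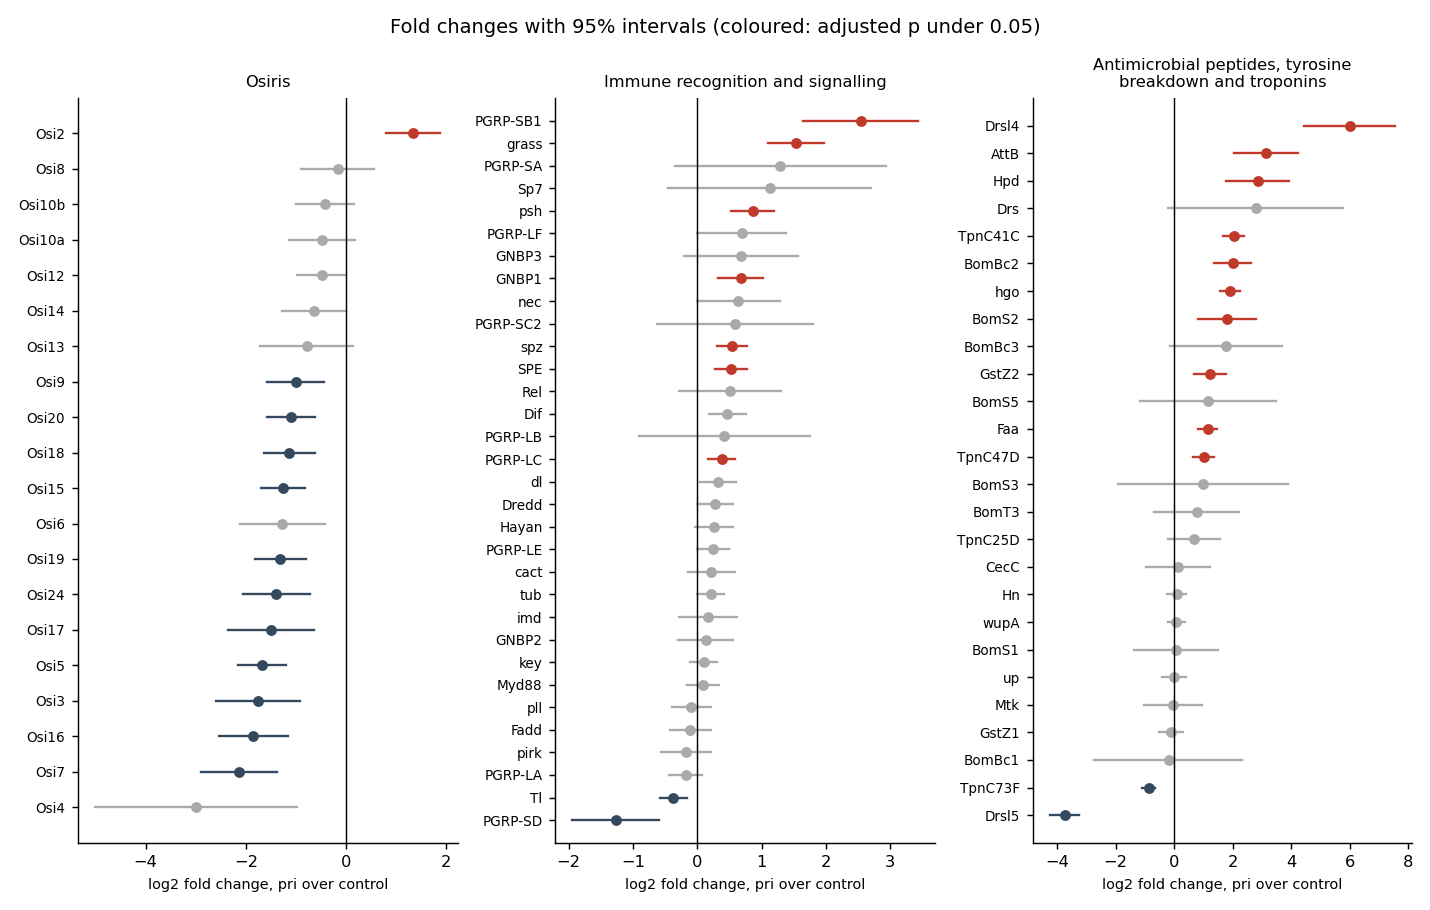
Log2 fold changes of pri over control with 95% intervals (x axis) for members with a mean of at least 10 normalized counts: Osiris genes (left), immune recognition and signalling genes (middle), and antimicrobial peptide, tyrosine breakdown and troponin genes (right). Red members were called higher and dark ones lower in pri mutants, and grey ones were not called. Osi2 is the called Osiris gene on the right of 0, and Drsl4 (5.99) and Drsl5 (-3.74) lie at opposite ends of their panel.

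Blood cell genes were called in 7 of 22 cases, 5 higher and 2 lower, against 7.51% of all genes in either direction, while the median log2 fold change of the list was -0.06. The phagocytic receptor gene NimC1 had 289, 238 and 273 normalized counts in pri mutants, against 126, 118 and 151 in controls. NimB4, a secreted protein of apoptotic cell clearance, averaged 2072 ± 147 in pri mutants and 1346 ± 60.6 in controls. NimC4, a receptor for apoptotic cells, moved the other way, to 1335 ± 177 in pri mutants against 2383 ± 76.1 in controls. The call of NimC4 held in 12 of 16 alternatives, not without any control or pri 2 (adjusted p = 0.0521 to 0.0698). The crystal cell factor lozenge (lz), a Runx protein, had 107, 49.8 and 50.2 in pri mutants, against 26.2, 22.5 and 24.0 in controls, and was called in 12 of 16 alternatives, not in the fit of 6 samples (adjusted p = 0.0553) or without any control (adjusted p = 0.0753 to 0.0871). PPO2, the prophenoloxidase of crystal cells, had 9218, 10624 and 9724 in pri mutants, against 6189, 6231 and 6077 in controls. PPO2 and the next genes, PPO3 of lamellocytes and the scavenger receptor gene Sr-CI, were chosen after their values were seen. PPO3 had a log2 fold change of -1.10 and Sr-CI one of 0.47. The calls of the 3 genes held in 11, 9 and 6 of 16 alternatives. Each was lost without any control or pri 2, PPO2 also without pri 3, PPO3 also without pri 1 or ken 3 and in the fit of 6 samples, and Sr-CI also without any other sample and in the fit of 6 samples (adjusted p up to 0.0986, 0.123 and 0.151).

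Stress genes had a median log2 fold change of 0.55 over the 24 members with a mean of at least 10, and 21 of these had a positive fold change, against 5820 of 11110 genes overall. Of 33 genes, 4 were called higher and none lower (12.1% called, against 3.68% of all genes that were higher), and none of these 4 was called without control 2. The small heat shock protein gene Hsp23 had 8626 normalized counts in pri 1 and 1142 and 2800 in pri 2 and 3, against 558, 545 and 770 in controls. Its log2 fold change was 2.75 and 1.66 without pri 1, and it was called in 11 of 16 alternatives, not in the fit of 6 samples, with a robust dispersion or without control 1, 2 or 3 (adjusted p = 0.0628 to 0.108). Hsp70Bb, one of several nearly identical heat shock genes between which reads can be split, had 420, 164 and 445 in pri mutants, against 9.61, 18.0 and 65.0 in controls. The call of Hsp70Bb held in 11 of 16 alternatives, not with a robust dispersion or without control 1, control 2, pri 1 or pri 3 (adjusted p up to 0.133), and its log2 fold change of 3.50 was 4.61 without control 3. Gadd45, a DNA damage and stress response gene, averaged 1050 ± 141 in pri mutants and 581 ± 83.0 in controls, and the cell death gene sickle (skl) averaged 1250 ± 199 in pri mutants and 788 ± 40.9 in controls. Gadd45 was called in 13 of 16 alternatives, not without control 2, control 3 or pri 3 (adjusted p = 0.0717, 0.0812 and 0.0516), and skl in 10, not without any control, ken 3, pri 2 or pri 3 (adjusted p up to 0.158).

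Genes of the ecdysone response, the hormone input to pri, were called in 5 of 29 cases, 3 higher and 2 lower (17.2%, against 7.51% of all genes). ImpE1, an ecdysone-inducible gene first found in imaginal discs, had 1728, 3498 and 2667 normalized counts in pri mutants, against 10289, 8734 and 5948 in controls (log2 fold change -1.66, SE 0.31, adjusted p = 0.0121). ImpL2, ecdysone-inducible too and the source of a secreted protein that binds insulin-like peptides, had 11771, 10386 and 10490 in pri mutants, against 6241, 5967 and 6378 in controls (log2 fold change 0.81, SE 0.08, adjusted p = 0.000827). The ken mutants had 8598 to 9901 for ImpL2 and 5662 to 10469 for ImpE1. The bZIP factor gene vrille (vri) averaged 1086 ± 175 in pri mutants and 2015 ± 252 in controls. The EF-hand gene Eip63F-1 averaged 2068 ± 135 in pri mutants and 1540 ± 118 in controls, and the nuclear receptor gene Hr51, chosen after its values were seen, averaged 207 ± 16.4 in pri mutants and 142 ± 11.8 in controls. Eip63F-1 was called in 14 of 16 alternatives, not without control 3 (adjusted p = 0.0775) or pri 2 (adjusted p = 0.0591). The calls of vri and Hr51 held in 8 and 9 alternatives and were lost without any control, pri 2, pri 3 or ken 3, for vri also without pri 1 and with a robust dispersion, and for Hr51 also in the fit of 6 samples (adjusted p up to 0.141 and 0.165). Of 19 genes of ecdysone synthesis and breakdown, none was called by edgeR, and 5 had an unadjusted p under 0.05, against 3362 of all 15228 genes. DESeq2 called 3 of the 19, all lower, against 5.50% of all genes. Of the 19, 15 had a negative fold change, against 5290 of 11110 genes with a mean of at least 10. Their median log2 fold change was -0.14, against 0.02. The best expressed of them, Cyp18a1, which inactivates the hormone, averaged 3703 ± 74.9 in pri mutants and 3877 ± 399 in controls, a log2 fold change of -0.07 with a 95% interval of -0.26 to 0.12.

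The insulin and nutrient genes were called in 3 of 31 cases, all higher: ImpL2, REPTOR and REPTOR-BP. This share, 9.68%, was near the 7.51% of all genes called in either direction and above the 3.68% that were higher. The number called higher was 1 to 3 on leaving out single samples. REPTOR, a transcription factor held in check by the growth kinase complex TORC1, averaged 5749 ± 129 in pri mutants and 4672 ± 262 in controls. Its partner REPTOR-BP averaged 1561 ± 326 in pri mutants and 1023 ± 48.9 in controls. They were called in 7 and 10 of 16 alternatives, and both calls were lost in the fit of 6 samples and without any control, pri 3 or ken 3, that of REPTOR also without pri 1, pri 2 or ken 2 (adjusted p up to 0.159 and 0.11). Of 45 neuropeptide hormone genes, 1 was called (2.22%, against 7.51% of all genes). This was myosuppressin (Ms), a peptide that slows visceral muscle, with 336, 322 and 324 normalized counts in pri mutants, against 131, 122 and 139 in controls. In the fat body list of 20 genes, the storage protein gene Lsp1gamma had 84.8, 97.5 and 107 in pri mutants, against 35.8, 22.5 and 24.0 in controls, and the lipid droplet gene Lsd-2 was lower. Lsd-2 averaged 5288 ± 393 in pri mutants and 6576 ± 306 in controls, and its call held in 7 of 16 alternatives, not with library totals, a replicate block, in the fit of 6 samples or without any control, pri 2, pri 3 or ken 3 (adjusted p up to 0.149).

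Of 6 genes that break down phenylalanine and tyrosine, 4 were higher (66.7%, against 3.68% of all genes) and none lower. The list was drawn up after the values were seen, so that its count is a description, and 1 further gene of it was not analysed here. Hpd, 4-hydroxyphenylpyruvate dioxygenase (FBgn0036992, 3L 20438166 to 20439872), had 3126, 2394 and 2192 normalized counts in pri mutants, against 370, 347 and 341 in controls (log2 fold change 2.86, SE 0.48, adjusted p = 0.00782). Homogentisate dioxygenase (hgo, FBgn0040211), which takes the product of Hpd, had 1513, 1358 and 1245 in pri mutants, against 365, 337 and 389 in controls. GstZ2, the maleylacetoacetate isomerase, averaged 1037 ± 232 in pri mutants and 445 ± 82.0 in controls and was called in 14 of 16 alternatives, not without control 2 (adjusted p = 0.0659) or control 3 (adjusted p = 0.0512). Fumarylacetoacetase (Faa), the last enzyme of the path, averaged 2408 ± 477 in pri mutants and 1083 ± 83.6 in controls. The first enzyme, phenylalanine hydroxylase (Hn), and the second isomerase gene, GstZ1, were not called, with log2 fold changes of 0.10 (95% interval -0.23 to 0.42) and -0.12 (-0.52 to 0.29). Tyrosine is also the source of the tanning agents of the cuticle, through dopa decarboxylase (Ddc), which had 7071 in pri 1 and 1398 and 2095 in pri 2 and 3, against 1690, 1473 and 2117 in controls and was not called. In ken mutants Hpd was at 2046, 418 and 839 and hgo at 504, 364 and 542.

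Lipid genes were called in 8 of 44 cases, 3 higher and 5 lower (18.2%, against 7.51% of all genes). The lipase gene Lip1 had 1479, 1697 and 1608 normalized counts in pri mutants, against 470, 522 and 444 in controls. Lip2, another lipase gene, had 58.5, 71.0 and 53.3 in pri mutants, against 182, 216 and 224 in controls. ATP citrate lyase (ATPCL), which makes the acetyl-CoA for fatty acid synthesis, averaged 4813 ± 490 in pri mutants and 7437 ± 514 in controls. The fatty acid transporter gene Fatp2 averaged 332 ± 68.3 in pri mutants and 959 ± 242 in controls. In the ken mutants Lip1 was at 1871 to 2511 and Lip2 at 38.7 to 60.0, on the same side of the controls as in pri mutants, whereas ATPCL was at 7893 to 9801. Of 34 sugar metabolism genes, 1 was called (2.94%, against 7.51% of all genes). This was the phosphoenolpyruvate carboxykinase gene Pepck2, with 1623, 1029 and 1131 in pri mutants, against 293, 383 and 308 in controls. The ken mutants were also high for Pepck2, at 1173 to 1508.

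Genes of detoxification families were called singly and in both directions. Of 80 cytochrome P450 genes 3 were higher and 5 lower, of 35 glutathione transferase genes 5 were higher and 1 lower, and of 35 UDP-glycosyltransferase genes 4 were higher and 5 lower. The shares called were 10%, 17.1% and 25.7% in this order, against 7.51% of all genes, so that the P450 share was near that of all genes. Cyp4p2 (FBgn0033395) had 1653, 1421 and 1688 normalized counts in pri mutants, against 120, 133 and 82.1 in controls (log2 fold change 3.82, SE 0.17, adjusted p = 1.13e-05). Cyp28a5 had 1363, 1147 and 1062 in pri mutants, against 181, 233 and 169 in controls. The ken mutants were high for both, at 1313 to 1482 and 617 to 787. Ugt35B1 had 102, 82.7 and 71.1 in pri mutants, against 4.37, 3.60 and 4.56 in controls. Ugt301D1 had 1403, 1713 and 1334 in pri mutants, against 560, 665 and 470 in controls. Ugt302E1 was low, with 8.02, 6.36 and 7.32 in pri mutants, against 108, 53.9 and 114 in controls. Among the glutathione transferases, GstE9 averaged 371 ± 93.0 in pri mutants and 167 ± 14.8 in controls, and GstS1 averaged 7354 ± 677 in pri mutants and 5225 ± 143 in controls. The lower member, GstD5, averaged 72.7 ± 28.6 in pri mutants and 285 ± 123 in controls and was called in 14 of 16 alternatives, not without control 1 (adjusted p = 0.0557) or pri 2 (adjusted p = 0.0566). The third P450 gene that rose, Cyp4e1, averaged 576 ± 29.1 in pri mutants and 285 ± 23.2 in controls.

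Of 15 methuselah-like receptor genes, which encode insect-specific G protein-coupled receptors, 4 were higher (26.7%, against 3.68% of all genes) and none lower. The gene mthl8 (FBgn0052475, near the end of 3L at 22428 to 26308) had 674, 705 and 755 normalized counts in pri mutants, against 14.8, 22.5 and 2.28 in controls (log2 fold change 5.68, SE 0.41, adjusted p = 0.000134). The ken mutants, at 724 to 826, had the same high level. The gene mthl9 averaged 2363 ± 105 in pri mutants and 1569 ± 32.3 in controls, with ken mutants at 1115 to 1354. The smaller change of mthl15, 376 ± 25.5 in pri mutants and 258 ± 0.474 in controls, was called in 12 of 16 alternatives, not without any control or pri 3 (adjusted p = 0.0513 to 0.0587). For mthl11, with 28 reads in the pri samples and 5 in the controls, the ratio at equal depth was 6.33 (95% counting interval 2.41 to 21.0). Its call held in 10 of 15 alternatives, not with DESeq2 or without any control or pri 2 (adjusted p = 0.0552 to 0.0606).

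Several genes whose mutant alleles serve as markers in fly stocks differed, and most of them differed in the ken mutants as well. White (w, FBgn0003996), the transporter of eye pigment precursors, had 636, 971 and 880 normalized counts in pri mutants, against 79.5, 89.9 and 76.4 in controls, and 220 to 302 in ken mutants. Rosy (ry, FBgn0003308, 3R 13032528 to 13038020), xanthine dehydrogenase, had 3640, 4420 and 4205 in pri mutants, against 954, 983 and 935 in controls, and 4145 to 4650 in ken mutants. Cinnabar (cn), kynurenine 3-monooxygenase, had 14 reads over the pri samples and 1 over the controls, a ratio of 15.8 with a counting interval of 2.41 to 669. Its call held in 11 of 16 alternatives, not in the fit of 6 samples or without control 2, control 3, pri 2 or pri 3 (adjusted p = 0.052 to 0.0783). These 3 genes were the called members of a list of 19 pigment and marker genes, all of them higher (15.8%, against 3.68% of all genes). The part of the markers, insertions and balancers of the stocks in these values was not tested.

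Few muscle and nerve genes were called by edgeR. Of 36 body wall muscle genes, 2 were higher and 1 lower, a share of 8.33%, near the 7.51% of all genes. The called genes were troponin C genes, whose proteins bind the calcium that starts contraction. TpnC41C (FBgn0013348, 2R 5065237 to 5070210) had 543, 545 and 583 normalized counts in pri mutants, against 130, 118 and 159 in controls (log2 fold change 2.04, SE 0.16, adjusted p = 0.000149). TpnC47D had 21030, 13793 and 14637 in pri mutants, against 7623, 8233 and 8663 in controls. TpnC73F went the other way, with 11651, 10323 and 10262 in pri mutants, against 17878, 20398 and 20229 in controls. The ken mutants were within or near the control range for TpnC41C (141 to 188) and TpnC73F (20131 to 23886). For TpnC47D they were at 8876 to 10532, above every control and under every pri sample. Of 39 neuronal genes edgeR called 1 higher (2.56%, against 3.68% of all genes). An unadjusted p under 0.05 was found for 10 of the 39, a share near that of all genes (3362 of 15228). DESeq2 called 5 of the 39 higher, against 872 of 15228 genes (5.73%). The edgeR call was the vesicular monoamine transporter gene Vmat, which averaged 3470 ± 540 in pri mutants and 2055 ± 316 in controls. The call of Vmat held in 11 of 16 alternatives, not without any control, pri 1 or pri 3 (adjusted p = 0.0541 to 0.0851). Of the 39, 33 had a positive fold change, against 5820 of 11110 genes with a mean of at least 10, and the median of the list was 0.25. The list's level was 0.43, 0.11 and 0.10 in pri mutants, against 0.12, -0.17 and 0.04 in controls.

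In the germ line and the small RNA pathway that guards it, single genes stood out. RpS5b, the form of ribosomal protein S5 used in the germ line, had 3067, 3248 and 3171 normalized counts in pri mutants, against 7634, 7749 and 7107 in controls (log2 fold change -1.25, SE 0.08, adjusted p = 7.02e-05). Armitage (armi, FBgn0041164, 3L 3461317 to 3466314), an RNA helicase of piRNA production, had 144, 162 and 156 in pri mutants, against 818, 769 and 943 in controls (log2 fold change -2.45, SE 0.13, adjusted p = 1.81e-05). The ken mutants were as low for both, at 2461 to 2914 for RpS5b and 156 to 193 for armi. The piRNA-binding Argonautes aub and piwi and the germ cell helicase vas were not called, with log2 fold changes of 0.19 (95% interval -0.14 to 0.51), -0.24 (-0.76 to 0.28) and 0.44 (0.16 to 0.72). Of 28 germ line genes, 7.14% were called, near the 7.51% of all genes. RpS5b was lower and stai, which encodes the microtubule protein stathmin, was higher, at 4732 ± 279 in pri mutants and 3539 ± 202 in controls. The call of stai held in 13 of 16 alternatives, not without control 2, control 3 or pri 2 (adjusted p = 0.0576 to 0.104). Among the 26 genes of the piRNA pathway, a list drawn up after the values were seen, armi was the 1 called (3.85%, against 7.51% of all genes).

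Some chemosensory, clock and serpin genes had strong changes at low or middle levels, and some tetraspanin genes had smaller ones. The odorant receptor gene Or71a had 8.02, 14.8 and 5.23 normalized counts in pri mutants, against 180, 155 and 170 in controls, and Or19b had 11.5, 3.18 and 1.05 in pri mutants, against 203, 136 and 210 in controls. Or19b has a nearly identical neighbour, Or19a, so that its value is uncertain, and its log2 fold change of -5.13 was -6.36 without pri 1. The ionotropic receptor gene Ir76a had 5.73, 3.18 and 3.14 in pri mutants, against 33.2, 39.6 and 46.8 in controls, and the gustatory receptor gene Gr59f had 104, 163 and 163 in pri mutants, against 56.8, 53.9 and 54.8 in controls. In ken mutants Or71a was also low (7.90 to 10.5), while Ir76a was not (53.5 to 75.8). Over the whole chemosensory list of 225 genes, 4 were higher and 5 lower, a share of 4.0% against 7.51% of all genes, but only 56 of the 225 had a mean of at least 10 normalized counts. The circadian transcription factor gene Clk had 16.0, 15.9 and 25.1 in pri mutants, against 111, 75.5 and 98.1 in controls. The serpin gene Spn42De, of a family of protease inhibitors, averaged 1265 ± 133 in pri mutants and 323 ± 37.7 in controls, and the tetraspanin gene Tsp42El averaged 2436 ± 296 in pri mutants and 1428 ± 95.9 in controls. A second tetraspanin gene, Tsp42Ej, averaged 999 ± 102 in pri mutants and 621 ± 19.6 in controls, while Tsp66E was lower, at 4173 ± 324 in pri mutants and 5699 ± 270 in controls. The log2 fold changes of Tsp42El, Tsp42Ej and Tsp66E were 0.77, 0.68 and -0.45. Of 27 serpin genes 2 were higher and 1 lower, and of 31 tetraspanin genes 2 were higher and 1 lower. These shares, 11.1% and 9.68%, were near the 7.51% of all genes.

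Many of the largest fold changes belonged to genes for which no function is given by a name. CG8100 had 30.9, 18.0 and 22.0 normalized counts in pri mutants, against 691, 670 and 541 in controls (log2 fold change -4.74, SE 0.23, adjusted p = 1.47e-05), and 109 to 143 in ken mutants. CG15370 had 14.9, 41.3 and 23 in pri mutants, against 858, 825 and 534 in controls, and 429 to 820 in ken mutants, closer to the controls. CG12522 averaged 32.1 ± 16.2 in pri mutants and 887 ± 204 in controls, and CG17005 averaged 4.81 ± 3.81 in pri mutants and 242 ± 34.4 in controls. CG31606 averaged 2.17 ± 1.07 in pri mutants and 132 ± 17.3 in controls, and CG14143 averaged 13.4 ± 3.49 in pri mutants and 188 ± 48.6 in controls. For these 4 genes the ken mutants were low too, none above 50.2. The noncoding gene lncRNA:CR45226 had 3 reads over the pri samples and 343 over the controls, a ratio of 0.00989 (95% counting interval 0.00203 to 0.0291). The tetraspanin gene CG31600 had 4 and 347, a ratio of 0.0130 (0.00353 to 0.0337). Sdic2, of a cluster of nearly identical sperm dynein genes and therefore uncertain, had 14.9, 5.30 and 0 normalized counts in pri mutants, against 144, 171 and 172 in controls, and its log2 fold change of -4.60 was -5.88 without pri 1 and -4.01 without pri 3. The log2 fold change of CG17005 was -5.64, and -6.46 without pri 1, and that of lncRNA:CR45226 was -6.50, and -7.34 without pri 3.

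Among the genes that rose most, CG16894 (FBgn0034483) had 522 reads over the pri samples and 4 over the controls, a ratio of 148 with a 95% counting interval of 57.3 to 544, and 0 to 4.94 normalized counts in ken mutants. CG1638 had 212, 278 and 214 normalized counts in pri mutants, against 27.1, 16.2 and 29.7 in controls, and 20.6 to 60.2 in ken mutants. CG2233 averaged 1930 ± 626 in pri mutants and 215 ± 29.4 in controls, and CG11825 had 1605, 465 and 481 in pri mutants, against 27.1, 44.9 and 18.3 in controls, with ken mutants high for both, at 1271 to 1719 and 729 to 1101. The log2 fold change of CG11825 was 4.79, and 3.94 without pri 1. The antisense gene asRNA:CR45600 had 311, 498 and 428 in pri mutants, against 6.11, 18.0 and 5.70 in controls, and 427 to 465 in ken mutants. Whether reads were counted by strand is not given in the sources used here, and its reads could be those of the gene it overlaps. Its log2 fold change of 5.33 was 6.09 without control 2. CG42329 had 272, 350 and 277 in pri mutants, against 9.61, 50.3 and 2.28 in controls, and 174 to 520 in ken mutants, and was called in 15 of 16 alternatives, not without control 1 (adjusted p = 0.0768), while its log2 fold change of 3.81 was 5.55 without control 2.

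A last group of rising genes was led by pri 1. CG15597 had 1480 normalized counts in pri 1 and 286 and 354 in pri 2 and 3, against 49.8, 25.2 and 26.2 in controls, and its log2 fold change of 4.37 was 3.23 without pri 1. CG34454 had 635, 77.4 and 110 in pri mutants, against 21.8, 23.4 and 17.1 in controls. CG11842 had 574, 109 and 103 in pri mutants, against 27.9, 26.1 and 21.7 in controls. CG30151 had 269, 58.3 and 66.9 in pri mutants, against 21.0, 13.5 and 12.5 in controls. Their log2 fold changes of 3.70, 3.36 and 3.05 were 2.16, 2.05 and 1.98 without pri 1. They were called in 12, 12 and 13 of 16 alternatives and each call was lost without control 1, 2 or 3, that of CG34454 also in the fit of 6 samples and that of CG11842 also with a robust dispersion (adjusted p = 0.0507 to 0.117). The digestive enzymes of the midgut, by contrast, were called in 2 of 57 cases, both lower (Mal-B1 and Jon74E). This share, 3.51%, was near the 3.83% of all genes that were lower. The level of the list was 1.74 in pri 1, -1.05 in pri 2 and -0.64 in pri 3, against 0.55, -0.58 and 0.17 in controls. The trypsin gene betaTry, with 606, 12.7 and 8.37 in pri mutants, against 7.86, 3.60 and 5.70 in controls, was not called (adjusted p = 0.0948). The maltase gene Mal-B1 averaged 46.7 ± 17.2 in pri mutants and 195 ± 75.6 in controls, and the protease gene Jon74E had 2 reads over the pri samples and 32 over the controls and was called in each of the 15 alternatives that gave it a value.

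Among called genes with a mean of at least 50 normalized counts over the 6 samples, the most negative fold changes were those of 2 genes of the blastoderm, the early stage at which the embryo forms its cells, long before stage 16. Bottleneck (bnk), which holds back the closing of the forming cells, had 1.15, 5.30 and 1.05 normalized counts in pri mutants, against 268, 958 and 7.99 in controls, and 1.05 to 3.95 in ken mutants. Elba1, part of an early insulator complex, had 1.15, 5.30 and 2.09 in pri mutants, against 271, 619 and 6.84 in controls. The gene halo, which steers lipid droplet transport, averaged 22.3 ± 13.4 in pri mutants and 288 ± 250 in controls, and nullo had 3 reads over the pri samples against 62, 64 and 2 in the controls. High values were thus found in controls 1 and 2 and near-mutant values in control 3. Of 13 cellularization genes, a list drawn up after the values were seen, 5 were called lower with all samples (38.5%, against 3.83% of all genes). The fifth was short spindle (ssp), at a log2 fold change of -0.42, and without pri 1 only ssp was called. This gene did not share the pattern among controls, with 720, 747 and 705 normalized counts there, against 570, 514 and 538 in pri mutants. The call of ssp held in 11 of 16 alternatives, not without any control, pri 2 or pri 3 (adjusted p up to 0.124). The calls of bnk, Elba1, nullo and halo held in 9, 8 and 9 of 15 and, for halo, 8 of 16 alternatives. They were lost in the fit of 6 samples and without control 2 or any single pri sample, for Elba1, nullo and halo also without control 1, for bnk, Elba1 and halo also with a robust dispersion, and for halo also without ken 3 (adjusted p = 0.0514 to 0.113). Without control 2, the log2 fold changes of bnk, Elba1 and halo were -5.72, -5.55 and -2.88, against -7.29, -6.65 and -3.68 with all samples, and without pri 2 those of bnk and Elba1 were -8.41 and -7.41. CG14014, of unknown function, had 3.44, 12.7 and 15.7 in pri mutants, against 152, 360 and 16.0 in controls, the same order among controls, and was called in 6 of 16 alternatives, not in the fit of 6 samples, with a robust dispersion or without any single sample other than control 3 (adjusted p = 0.0574 to 0.146).

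**Figure D5:**
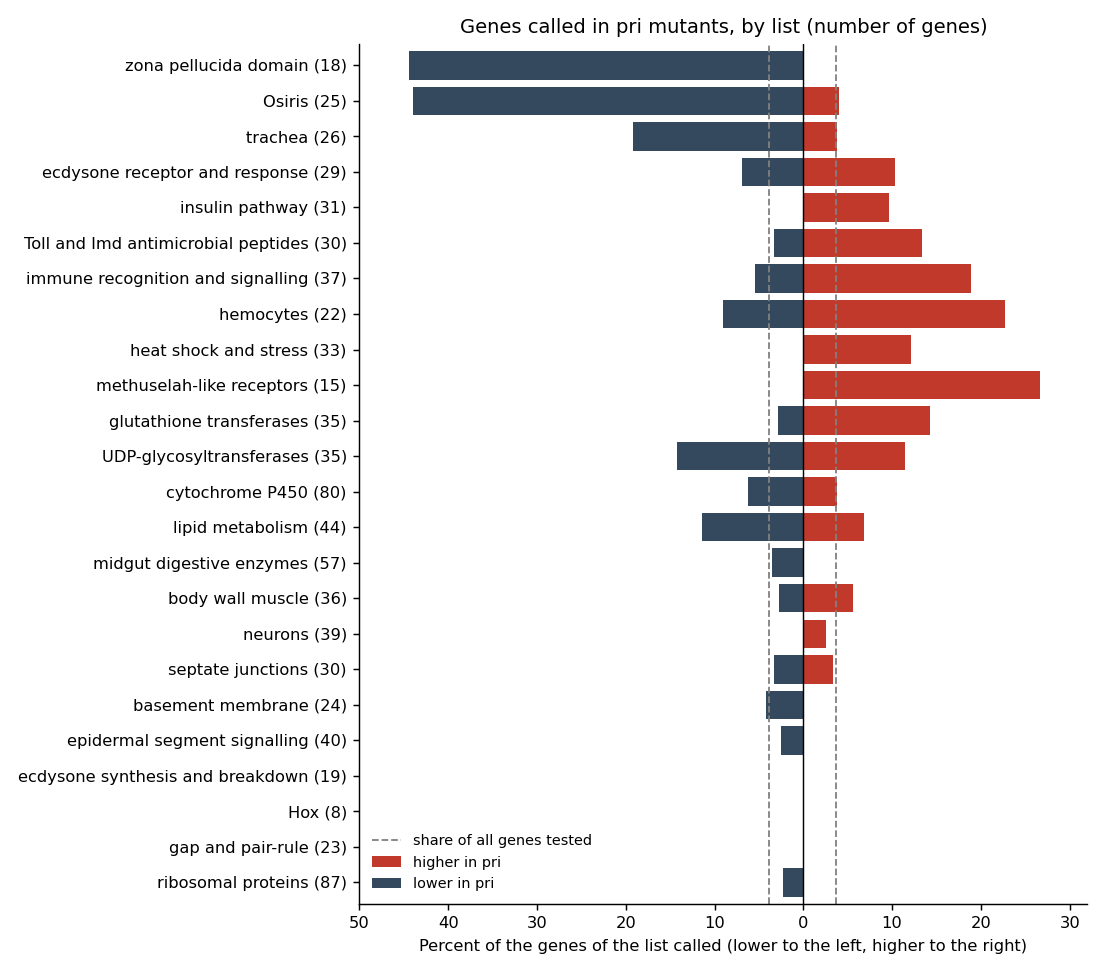
Percent of the genes of each list that were called higher (red, to the right) or lower (dark, to the left) in pri mutants; the number of genes is in parentheses, and the dashed lines mark the shares of all genes tested, 3.68% higher and 3.83% lower. The zona pellucida and Osiris lists reach furthest to the lower side, the methuselah-like receptors and blood cell genes to the higher side, and the 8 Hox genes hold no call.

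Programmes that lay out the body before the epidermis differentiates had few or no calls. None of 8 Hox genes was called by edgeR or DESeq2, and 1 had an unadjusted p under 0.05. Without pri 1, edgeR called Ubx higher (log2 fold change 0.69, adjusted p = 0.0283). Ubx had 2559, 3160 and 4692 normalized counts in pri mutants, against 2515, 2487 and 2312 in controls, a log2 fold change of 0.51 with an interval of 0.09 to 0.93. The log2 fold change of abd-A was 0.10, with an interval of -0.19 to 0.40. None of 23 gap and pair-rule genes was called by edgeR or DESeq2, with 2 under an unadjusted p of 0.05, and the log2 fold change of Kr was 0.05 (-0.11 to 0.20). Of 40 genes of epidermal segment signalling, 1 was lower (2.5%, against 3.83% of all genes). This was Mad, a transcription factor of Dpp signalling, at 1911 ± 46.8 in pri mutants and 2534 ± 203 in controls. The call of Mad held in 12 of 16 alternatives, not without control 1, control 2, pri 2 or pri 3 (adjusted p = 0.0621 to 0.0961). None of 13 JAK/STAT genes was called by edgeR or DESeq2, and 1 had an unadjusted p under 0.05.

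The structure and upkeep genes of cells were also near control levels. Shares called in the lists of this paragraph were 1.16% to 6.67%, against 7.51% of all genes. Of 30 septate junction genes, wun was higher and M6 lower, with log2 fold changes of 0.37 and -0.43 and calls in 11 and 8 of 16 alternatives, both lost without any control, pri 2 or pri 3, that of M6 also without pri 1 or ken 3 and with library totals (adjusted p up to 0.0902 and 0.133). Of 24 basement membrane genes, 1 was lower, and of 19 polarity genes, 1 was higher. The polarity gene was bazooka (baz), at 2674 ± 370 in pri mutants and 1778 ± 204 in controls, called in 11 of 16 alternatives and not in the fit of 6 samples or without control 2, control 3, pri 2 or pri 3 (adjusted p up to 0.071). The basement membrane gene was Loxl1, a lysyl oxidase, at 28.0 ± 10.6 in pri mutants and 83.2 ± 7.59 in controls, called in 13 of 16 alternatives and not without control 2, control 3 or pri 2 (adjusted p up to 0.0594). Of 87 ribosomal protein genes, 2 were lower, RpS5b and RpL22. Of 72 mitochondrial ribosomal protein genes mRpL39 was lower, of 86 oxidative phosphorylation genes ND-15 was higher, and of 43 proteasome genes Prosbeta6 and Rpn13R were higher. The log2 fold changes of RpL22, mRpL39 and ND-15 were -0.39, -0.39 and 0.37, and their calls held in 11, 12 and 8 of 16 alternatives. The first was lost without control 1, control 2, pri 2, pri 3 or ken 3, the second without any control or pri 3, and the third without any control or pri sample or ken 3 and in the fit of 6 samples (adjusted p up to 0.0989, 0.071 and 0.128). Rpn13R averaged 31.9 ± 12.3 in pri mutants and 5.48 ± 3.63 in controls and was called in 12 of 16 alternatives, not without control 1, control 3, pri 3 or ken 3 (adjusted p up to 0.0984), and its log2 fold change of 2.52 was 3.12 without control 2. Prosbeta6, a subunit of the proteasome core, had 2653, 2766 and 2761 normalized counts in pri mutants, against 1446, 1620 and 1281 in controls. For these families the median log2 fold changes over members with a mean of at least 10 were -0.03, 0.05, 0.05 and -0.04, against 0.02 for all genes.

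Calls were spread over the chromosomes. The share of genes called was 8.36% on 3R, the arm of pri, 8.55% on 3L, 7.25% on 2R, 6.55% on 2L and 6.72% on X, against 7.51% of all genes. On 3R, among genes with a mean of at least 10 normalized counts, 15.3% of the 176 genes within 1 Mb of the stretch beside pri were called, against 8.43% to 11.1% in the bins from 1 to 30 Mb. The near bin held 17 higher and 10 lower genes, and the genes of the stretch itself were left out of all bins. Of 12854 protein-coding genes 526 were higher and 529 lower, and of 1797 noncoding RNA genes 28 were higher and 48 lower. The shares called were 8.21% and 4.23%, against 7.51% of all genes.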

How the data were processed

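Whole-embryo RNA of 3 control, 3 pri and 3 ken samples was measured by sequencing of polyadenylated RNA with a strand-specific kit. The authors aligned paired-end reads to dm6 with STAR 2.6.1d and deposited read counts per gene of the FlyBase release 6 annotation, keeping genes with more than 1 read in total. Beside them they deposited a normalized signal, the counts divided by the DESeq2 1.32.0 size factor of each sample, which is called normalized counts here. The labels also list mouse genome builds, which the FlyBase gene IDs contradict. Gene positions come from Ensembl's annotation of release 6, in which 15159 of 15228 genes were matched by ID. No authors' comparison column was used, and 0 per-sample columns were left out.

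The main test was the quasi-likelihood F test of edgeR 4.0.16 (R 4.3.3) on the counts of the 3 genotypes together, each with its own mean, with TMM factors, no filter on low counts and Benjamini-Hochberg adjustment over 15228 genes. The test was also run on simulated data, but the outcome is not reported here and lends the calls no weight. Replicates were grouped by the source label. Counting intervals of ratios cover counting error only, are exact at 95% and assume independent reads. Depth was 21048610 to 28859395 counts per sample.

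Named genes were, outside the cuticle, trichome and pri-flanking lists, the 15 with the largest log2 fold change at a mean of at least 50 and the 10 with the largest difference of means in each direction among called genes without overlap, in every list at most 4 members taken by smallest adjusted p, and all genes beside pri. Genes named outside the rule are said to be so. The rule, the lists and the members were chosen with earlier results of these data known. The alternatives were DESeq2 1.42.0, RLE factors, library totals, a filter on low counts, a fit of the 6 samples, a replicate block, a robust dispersion and leaving out each sample in turn. The alternative for normalized values alone did not apply, since counts were deposited. All list descriptions are counts of calls and medians, with no set test.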

Additional observations from a re-analysis of the deposited data

How the results depend on the processing

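Higher and lower genes were 561 and 583 in the fit reported, 872 and 837 with DESeq2, and 243 and 360 with an added log2 fold change over 1. Leaving out single samples gave 257 to 611 higher and 308 to 676 lower genes. Lower Osiris genes were 5 to 13 on leaving out single samples (11 with all samples), and higher immune recognition genes were 3 to 7 (7 with all samples) and 2 past a log2 fold change of 1, where 1 tracheal gene was lower. Log2 fold changes of genes that were not called changed sign on leaving out single samples, between -0.01 (without pri 1) and 1.38 for Ddc, -0.04 (without pri 1) and 0.20 for Hn, and -0.14 and 0.01 (without control 1) for mesh. RLE factors, library totals, the filter on low counts, the robust dispersion and the fit of 6 samples kept both totals within 1.5 times, and library totals moved the median log2 fold change by 0.03. With the replicate number as a block, 820 genes were higher and 845 lower. Same-numbered pri and control samples had correlations of their deviations of 0.433, 0.545 and -0.111, and pri 3 correlated best with control 2 (0.396), so that the numbers were not taken to pair the samples. With 3 samples per group, small changes of genes with few reads were not detectable at this depth.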
